A study of Mus musculus with 8 samples.

Results

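The genes described here are 5 NF-κB subunits (Nfkb1, Nfkb2, Rel, Rela and Relb) and 5 genes grouped as inhibitors of NF-κB signaling. The inhibitors are Nfkbia, Nfkbie, Nfkbiz, Tnfaip3 and Tnip1, and all 10 genes were taken by name from the rows of a single-cell UMI count matrix. They are 10 of 16889 genes in that matrix, all 10 were detected, and all 10 passed the filter on low counts in each comparison. The members were followed across cell clusters named from marker genes and between conditions with the mouse as the replicate. They were chosen with earlier results of these data known, so counts of members called are a description. In the GENCODE annotation of GRCm38 the subunit genes lie on 4 chromosomes, with Nfkb1 at chr3:135584655-135691547, Nfkb2 at chr19:46304320-46312385, Rel at chr11:23736847-23770970, Rela at chr19:5637483-5648130 and Relb at chr7:19606217-19629438. The inhibitor genes are Nfkbia at chr12:55489410-55492647, Nfkbie at chr17:45555703-45563169, Nfkbiz at chr16:55811375-55838899, Tnfaip3 at chr10:19000910-19015657 and Tnip1 at chr11:54910785-54962917.

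NF-κB is a family of transcription factors whose subunits pair into dimers and bind κB sites in DNA. In resting myeloid cells the dimers are held in the cytoplasm by IκB proteins, and signals from toll-like receptors and from the TNF and IL-1 receptors lead an IκB kinase to mark these inhibitors for degradation. Many inhibitors are themselves NF-κB target genes and form negative feedback loops, and in intestinal macrophages the pathway is known for the control of inflammatory cytokines against a background of bacterial products.

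CD11b+ cells with CCR2 or CD64 on their surface were taken by sorting from the colonic lamina propria of 8 female CD98ΔCX3CR1 mice, littermates of 6 to 12 weeks, and each mouse was captured in a well of its own with a 3′ single-cell kit. These mice carry floxed alleles of CD98hc (gene Slc3a2), the heavy chain of amino acid transporters, and a tamoxifen-inducible Cre recombinase with a fluorescent reporter driven by the Cx3cr1 promoter, so that recombination is limited to cells that use this promoter. The 4 control mice (replicates 1 to 4) received corn oil and the 4 cKO mice (replicates 5 to 8) received 100 µl of tamoxifen at 20 mg/ml per day, for 5 days with the readout on day 7. Both groups carried the same alleles and only the cKO mice received tamoxifen, so the effects of tamoxifen and of the deletion cannot be told apart.

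After the filters, 3213 of 5947 barcodes were kept, 1863 from control and 1350 from cKO mice, with 589135 to 3762314 UMIs per control mouse and 497531 to 2486236 UMIs per cKO mouse (two-sided exact permutation test over 70 arrangements, p = 0.314). No batch is given for the mice beyond separate wells of the same day and cartridge. In all cells summed, p-values measure the spread between these mice. Within clusters the fit had no term for the mouse, so sums of a mouse in different clusters counted as independent. Control replicate 3 and cKO replicate 5 kept only 85 and 83 cells, Scrublet called 15 control and 58 cKO cells as doublets (24 of them in cKO replicate 5), and 8 barcode sequences among the kept cells occurred in more than one well. Levels are given as CPM, UMIs of a gene relative to all UMIs of the summed cells on a common scale, and a gene is called at a Benjamini-Hochberg adjusted p below 0.05. Slc3a2, the targeted gene, was at 358, 264, 233 and 493 CPM in control replicates 1 to 4 and at 291, 357, 323 and 309 CPM in cKO replicates 5 to 8, with a log2 fold change of 0.02 (edgeR quasi-likelihood test, Benjamini-Hochberg adjusted p = 0.976). Within clusters it was between -0.57 (Fam213b-Nr1h3) and 0.41 (lymphoid-like), and in none was it called (lowest adjusted p = 0.527). Recombination removes exon 3, whereas 3′ reads come from the end of the transcript, so these levels do not check the labels. Cells fell into 9 clusters, of which those with lymphoid, stromal and dendritic cell markers (178, 88 and 519 cells) lie outside the labelled monocytes and macrophages. The other clusters were monocyte-like (585 cells, led by Chil3), macrophage-like (370 cells, led by Fcrls and Pf4), low-UMI macrophage-like (260 cells, led by Ccl8 and Pf4, with a median UMI count 0.234 times that of the cells of the same mouse) and 3 that are called by 2 of their leading genes, namely the Arg1-Saa3 (388 cells), Cebpb-Ier5 (341 cells) and Fam213b-Nr1h3 (484 cells) clusters. The Cebpb-Ier5 cluster was also shallow, with a median UMI count 0.359 times that of the cells of the same mouse. The members, the pathway lists and the genes the study lists as differing between conditions were left out of the clustering.

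The promoters of the members that the results turn on are shown so that a reader can see the κB sequences in them. Each window runs from 250 bases before to 50 bases after a RefSeq transcription start on GRCm38.p6, is written 5′ to 3′ on the strand of the gene, and has in capitals every match to the κB consensus on either strand, with overlapping matches run together. A window was found for 7 of 10 members (Nfkb2, Rel, Rela, Nfkbia, Nfkbie, Tnfaip3 and Tnip1), and 6 of these 7 held the motif. Counted by window it was in 8 of 10, a pair of which overlap and share a match, against 8.46% of 32851 windows of all genes. The 4 inhibitors come first and Rel and Rela, the subunits with the highest and the lowest level, follow.
Nfkbia (chr12:55492598-55492897, minus strand): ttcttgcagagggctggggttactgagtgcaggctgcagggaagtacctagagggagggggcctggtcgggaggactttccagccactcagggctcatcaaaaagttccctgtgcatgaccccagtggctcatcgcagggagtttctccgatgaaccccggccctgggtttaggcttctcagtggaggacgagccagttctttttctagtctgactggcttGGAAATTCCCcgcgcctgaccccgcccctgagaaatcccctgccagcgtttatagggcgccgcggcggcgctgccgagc
Nfkbie (chr17:45555450-45555749, plus strand): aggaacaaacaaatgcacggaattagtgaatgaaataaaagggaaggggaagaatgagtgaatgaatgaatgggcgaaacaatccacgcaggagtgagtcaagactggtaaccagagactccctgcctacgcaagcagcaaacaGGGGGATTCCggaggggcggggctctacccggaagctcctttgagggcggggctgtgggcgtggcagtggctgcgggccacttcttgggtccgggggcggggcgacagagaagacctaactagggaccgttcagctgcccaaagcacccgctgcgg
Tnfaip3 (chr10:19015361-19015660, minus strand): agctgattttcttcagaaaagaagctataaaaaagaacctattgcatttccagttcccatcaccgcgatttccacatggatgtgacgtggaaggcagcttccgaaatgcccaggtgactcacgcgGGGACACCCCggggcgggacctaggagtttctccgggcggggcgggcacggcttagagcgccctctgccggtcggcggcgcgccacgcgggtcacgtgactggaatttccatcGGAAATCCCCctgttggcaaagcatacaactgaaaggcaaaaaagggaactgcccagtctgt
Tnip1 (chr11:54962891-54963190, minus strand): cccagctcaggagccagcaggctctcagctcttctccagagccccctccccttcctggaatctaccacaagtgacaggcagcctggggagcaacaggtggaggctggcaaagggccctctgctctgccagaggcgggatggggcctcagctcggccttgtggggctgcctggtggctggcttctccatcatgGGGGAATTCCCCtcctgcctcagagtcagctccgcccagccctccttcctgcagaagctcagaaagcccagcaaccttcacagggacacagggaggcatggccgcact
Rel (chr11:23770920-23771219, minus strand): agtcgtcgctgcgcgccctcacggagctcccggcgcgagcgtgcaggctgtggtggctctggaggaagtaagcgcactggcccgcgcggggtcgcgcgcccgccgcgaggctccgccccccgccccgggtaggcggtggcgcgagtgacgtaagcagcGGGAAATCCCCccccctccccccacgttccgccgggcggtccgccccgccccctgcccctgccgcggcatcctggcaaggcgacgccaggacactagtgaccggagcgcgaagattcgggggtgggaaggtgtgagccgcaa
Rela (chr19:5637291-5637590, plus strand): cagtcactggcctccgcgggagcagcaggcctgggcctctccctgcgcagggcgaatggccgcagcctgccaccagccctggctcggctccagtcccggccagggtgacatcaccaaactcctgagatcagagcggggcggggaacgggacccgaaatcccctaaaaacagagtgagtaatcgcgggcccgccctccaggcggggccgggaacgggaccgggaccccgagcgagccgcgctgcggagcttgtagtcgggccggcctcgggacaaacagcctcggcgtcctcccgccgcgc

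In these windows the Nfkbia match GGAAATTCCC began 29 bases before the start and the Nfkbie match GGGGGATTCC 106 bases before it. Of 2 Tnfaip3 windows, the one shown held GGGACACCCC at 125 bases and GGAAATCCCC at 12 bases before the start, and the other held no match. The Tnip1 window held the palindromic run GGGGAATTCCCC at 58 bases before the start. The Rel window held GGGAAATCCCC at 92 bases before the start, and the Rela window had no match to these letters. Nfkb2 had 3 windows and each held a match, the same one in the overlap of the last 2. A match is a description of the sequence and does not show that a factor binds there.

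The first question was whether the members differed between cKO and control mice when all kept cells of a mouse were summed. Of the 5 inhibitors 2 rose in cKO mice, and none of the 5 subunits passed the threshold. The inhibitors that rose were Nfkbie (1.84-fold) and Tnip1 (2.03-fold), and the other 3 inhibitors had adjusted p-values just above 0.05. In such sums, fewer cells of a type and less RNA per cell cannot be told apart.

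Among the inhibitors, Nfkbia, which encodes IκBα and retains dimers in the cytoplasm, was the most abundant member. Its level was 699.8, 766, 805 and 1407 CPM in control replicates 1 to 4 and 1465, 1309, 2304 and 1439 CPM in cKO replicates 5 to 8. Control replicate 4 stood above the other controls and reached into the range of the cKO mice, so that the groups overlapped. Means were 919 ± 328 CPM in control and 1629 ± 455 CPM in cKO mice (SD, n = 4 each), with a log2 fold change of 0.93 (SE 0.25, adjusted p = 0.0546, edgeR quasi-likelihood test).

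Nfkbie encodes IκBε, another cytoplasmic inhibitor, and it rose in cKO mice. Its level was 59.0, 52.0, 56.0 and 89.9 CPM in control mice and 123, 85.9, 143 and 94.1 CPM in cKO mice. Again only control replicate 4 reached the cKO range. The log2 fold change was 0.88 (SE 0.22, adjusted p = 0.0456, edgeR quasi-likelihood test).

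Tnip1 encodes a ubiquitin-binding adaptor that works with the enzyme encoded by Tnfaip3, and it also rose. Its level was 39.6, 30.9, 32.3 and 47.1 CPM in control mice and 56.3, 50.2, 111 and 63.0 CPM in cKO mice. All cKO mice lay above all control mice, with cKO replicate 7 the highest. The log2 fold change was 1.02 (SE 0.26, adjusted p = 0.0478, edgeR quasi-likelihood test), and without cKO replicate 7 it was 0.66 (adjusted p = 0.134).

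Tnfaip3, a ubiquitin-editing enzyme that ends signaling from TNF and toll-like receptors, was at 67.8, 83.5, 163 and 148 CPM in control mice and at 223, 174, 289 and 196 CPM in cKO mice. The groups did not overlap, and control replicates 3 and 4 stood above replicates 1 and 2. Its log2 fold change of 1.06 (SE 0.28) had an adjusted p of 0.0546 by the edgeR quasi-likelihood test.

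Nfkbiz encodes a nuclear IκB protein that acts with NF-κB dimers on secondary response genes, and it is counted among the inhibitors by its family. It was at 156, 168, 236 and 235 CPM in control mice and at 386, 244, 362 and 280.0 CPM in cKO mice. The groups did not overlap, with cKO replicate 6 closest to the controls. The log2 fold change was 0.78 (SE 0.20, adjusted p = 0.0502, edgeR quasi-likelihood test).

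Among the subunits, Rel was the most abundant, with 109.8, 100.3, 149 and 209 CPM in control mice and 221, 188, 197 and 147 CPM in cKO mice. Rel encodes c-Rel, a subunit with a transactivation domain that is used mostly in blood cells, and its groups overlapped over most of their range. Its log2 fold change was 0.50 (SE 0.23, adjusted p = 0.249, edgeR quasi-likelihood test).

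Relb and Nfkb2 encode the partners of the non-canonical pathway. Relb was at 44.4, 32.1, 25.5 and 40.7 CPM in control mice and at 66.3, 43.5, 55.9 and 55.1 CPM in cKO mice. Nfkb2 was at 51.6, 45.6, 57.7 and 71.0 CPM in control mice and at 80.4, 72.0, 90.1 and 67.4 CPM in cKO mice. In each gene 1 control mouse, replicate 1 for Relb and replicate 4 for Nfkb2, lay above the lowest cKO mouse. The log2 fold changes were 0.66 for Relb (SE 0.19, adjusted p = 0.0732) and 0.56 for Nfkb2 (SE 0.18, adjusted p = 0.106) by the edgeR quasi-likelihood test.

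Nfkb1 and Rela encode the partners of the canonical dimer. Nfkb1 was at 85.6, 73.4, 88.3 and 118 CPM in control mice and at 113, 84.0, 131 and 84.9 CPM in cKO mice. Rela was at 34.8, 29.7, 25.5 and 34.0 CPM in control mice and at 28.1, 29.6, 30.2 and 27.6 CPM in cKO mice. The groups overlapped in both genes, and the cKO range of Rela lay inside the control range. Their log2 fold changes were 0.27 (SE 0.20, adjusted p = 0.491) for Nfkb1 and -0.02 (SE 0.16, adjusted p = 0.963) for Rela by the edgeR quasi-likelihood test, and the sign of the Rela value turned under 4 of 17 alternative settings.

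**Figure D1:**
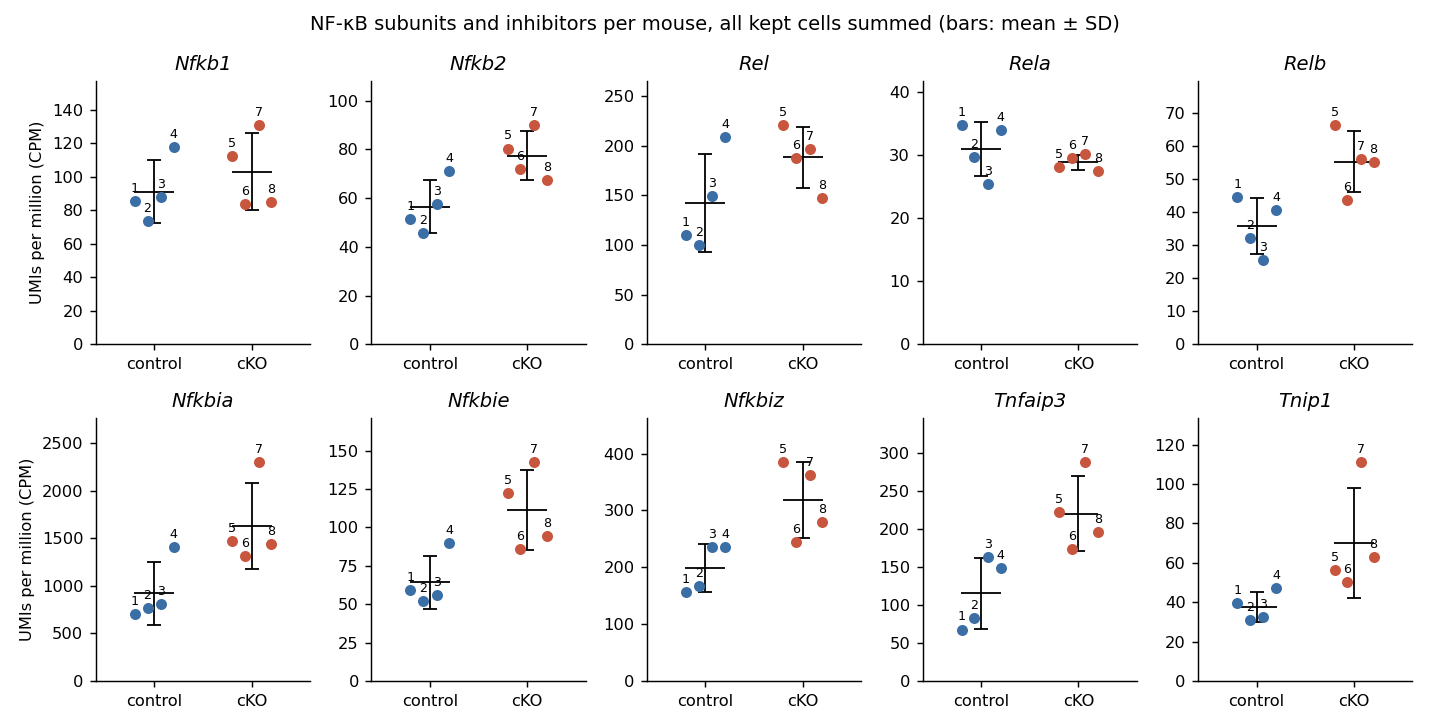
Level of each member per mouse in CPM (vertical axis) with all kept cells summed, in control (replicates 1 to 4, blue) and cKO mice (replicates 5 to 8, red), with the mean ± SD as bars. In Nfkbiz, Tnfaip3 and Tnip1 all cKO mice lie above all control mice, whereas in Rela the cKO mice (27.6 to 30.2 CPM) lie within the control range.

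Thus 2 of 10 members were called higher and none lower, where 2.99% and 1.48% of 11387 genes were called higher and lower, and 7 members had an unadjusted p under 0.05, as did 20.6% of genes. All cKO mice lay above all control mice in 3 members, where 4.0% of genes did so, and in none did they lie below, where 8.34% did. With scaling by total UMIs in place of TMM, 270 genes were called higher and 261 lower (341 and 169 here), the median of all genes was -0.13 and no member was called. The median log2 fold change was 0.50 for the subunits and 0.93 for the inhibitors, beside -0.03 for all genes tested. The 2 calls were near the threshold: Nfkbie was not called in 11 and Tnip1 in 12 of 17 alternative settings, in which the count of members called was between 0 and 7, whereas the direction of the inhibitors did not turn in any of them.

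The makeup of the cells summed also differed. Pooled over mice, the monocyte-like cluster held 175 control and 410 cKO cells and the macrophage-like cluster 310 and 60. The dendritic cell-like cluster held 423 and 96. By mouse, the macrophage-like cells were 132, 141, 9 and 28 in control replicates 1 to 4. In cKO replicates 5 to 8 they were 8, 12, 15 and 25. Kept cells were 724, 505, 85 and 549 in control and 83, 349, 484 and 434 in cKO mice. Relative to its kept cells, control replicate 4 thus lay among the cKO mice in the macrophage-like cluster. The summed level of 8 monocyte markers was 1407 to 2960.4 CPM in control and 6729 to 10012 CPM in cKO mice, and all 8 had the higher mean in cKO mice. The summed level of 11 dendritic cell markers was 759 to 844 CPM in control and 151 to 281 CPM in cKO mice. Without the dendritic cell-, lymphoid- and stromal-like clusters, 1 of 10 members was called, where 210 of 10056 genes were called higher and 115 lower. The part of the other shifts in the result was not tested in these sums, and comparisons within clusters follow after the levels.

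The second question was where the members were expressed. Levels are CPM of 3′ UMIs, in which each molecule counts once and no scaling by length is needed, over mice with at least 20 cells in a cluster. Among the 8 clusters with more than 1 such mouse, each of the 10 members had its highest mean in the Arg1-Saa3 or the Cebpb-Ier5 cluster and its lowest in the low-UMI macrophage-like cluster. These means pool control and cKO mice. In control mice alone the same held except that Tnip1 was lowest in the dendritic cell-like cluster (17.6 CPM, against 26.8 CPM in the low-UMI cluster). Only 2 control mice had 20 cells in the Arg1-Saa3 cluster.

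Nfkbia had its highest mean in the Arg1-Saa3 cluster with 2197 ± 579.8 CPM (SD, n = 5). It was lower in the Cebpb-Ier5 (1520.2 ± 779, n = 6), monocyte-like (1467 ± 903, n = 6), lymphoid-like (1403 ± 221, n = 6) and Fam213b-Nr1h3 clusters (1146 ± 253, n = 6). The macrophage-like (861 ± 178, n = 4), dendritic cell-like (667 ± 214, n = 7) and low-UMI macrophage-like clusters (553 ± 162, n = 6) followed. In control mice alone the Arg1-Saa3 cluster was highest (2008 ± 847 CPM, n = 2). The lymphoid-like (1271 ± 259 CPM), Fam213b-Nr1h3 (1082 ± 369 CPM) and Cebpb-Ier5 clusters (946 ± 383 CPM) followed (n = 3 each). Within mice the Arg1-Saa3 cluster exceeded the low-UMI cluster by 2.08 ± 0.28 on the scale of log2(CPM + 10), in 5 of 5 mice (two-sided exact sign-flip test, p = 0.0625, the smallest that 5 mice allow). This pair was picked as the highest and lowest by means that include these mice, so the test is a description.

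Rel was highest in the Arg1-Saa3 and Cebpb-Ier5 clusters, also in control mice alone, with 294 ± 56.3 CPM (n = 5) in the Arg1-Saa3 and 280.5 ± 111 CPM (n = 6) in the Cebpb-Ier5 cluster. The Fam213b-Nr1h3 (157 ± 40.5), monocyte-like (139.7 ± 49.0), dendritic cell-like (137 ± 49.8) and macrophage-like clusters (88.0 ± 32.6) lay between, and the lymphoid-like (45.4 ± 23.0) and low-UMI clusters (18.4 ± 18.8, from 5 UMIs in all) were lowest. The Cebpb-Ier5 cluster exceeded the next in order, the Fam213b-Nr1h3 cluster, in 6 of 6 mice by 0.75 ± 0.26 log2 units (exact sign-flip p = 0.03125, adjusted p = 0.438). The order was set by the means of the same mice.

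Tnfaip3 and Nfkbiz were highest in the Cebpb-Ier5 cluster, with 377 ± 220.2 and 493 ± 156 CPM (n = 6), ahead of the Arg1-Saa3 cluster with 305 ± 113 and 394 ± 136 CPM (n = 5). In control mice alone the Tnfaip3 mean was higher in the Arg1-Saa3 cluster (232 CPM, n = 2) than in the Cebpb-Ier5 cluster (196 CPM, n = 3). The lymphoid-like cluster followed (193 CPM), but these means cover different mice. Within mice, Tnfaip3 was higher in the Cebpb-Ier5 than in the Arg1-Saa3 cluster in 5 of 5 mice, by 0.42 ± 0.38 log2 units (exact sign-flip p = 0.0625, adjusted p = 0.438). Below these clusters the genes differed in order, since Tnfaip3 came next in the lymphoid-like cluster (223 ± 106 CPM) and Nfkbiz in the Fam213b-Nr1h3 cluster (278 ± 58.2 CPM). In the dendritic cell-like cluster Tnfaip3 was at 52.4 ± 24.1 CPM and Nfkbiz at 96.0 ± 38.9 CPM (n = 7). In the lymphoid-like cluster Nfkbiz exceeded the dendritic cell-like cluster in 6 of 6 mice by 0.59 ± 0.38 log2 units (exact sign-flip p = 0.03125, adjusted p = 0.438).

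The other members had cluster means between 12.3 CPM (Rela, low-UMI cluster) and 156 CPM (Nfkbie, Arg1-Saa3 cluster). Among the clusters other than the low-UMI cluster with more than 1 mouse, Rela ranged from 25.1 ± 7.97 CPM in the Fam213b-Nr1h3 to 55.8 ± 32.5 CPM in the Cebpb-Ier5 cluster. In the stromal-like cluster only 1 control mouse had 20 cells, where Nfkbia was at 365 CPM and Tnfaip3 at 7.03 CPM (1 UMI).

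Most neighbours in these orders could not be separated. The orders come from means that include the mice tested, so the p-values of these pairs are a description. Of 70 pairs of neighbouring clusters over the 10 members, the mean within-mouse difference exceeded its SD in 12, 4 had an exact sign-flip p of 0.03125 (the smallest that 6 mice allow) and none passed after adjustment over the 70 pairs (smallest adjusted p = 0.438). The low-UMI cluster rests on 4 to 16 UMIs for each member except Nfkbia (169 UMIs), so that its low values are near the limit of detection. The Cebpb-Ier5 cluster, which is shallow too, rests on 33 (Rela) to 922 UMIs (Nfkbia) per member. The part of this depth in its high levels was not tested.

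**Figure D2:**
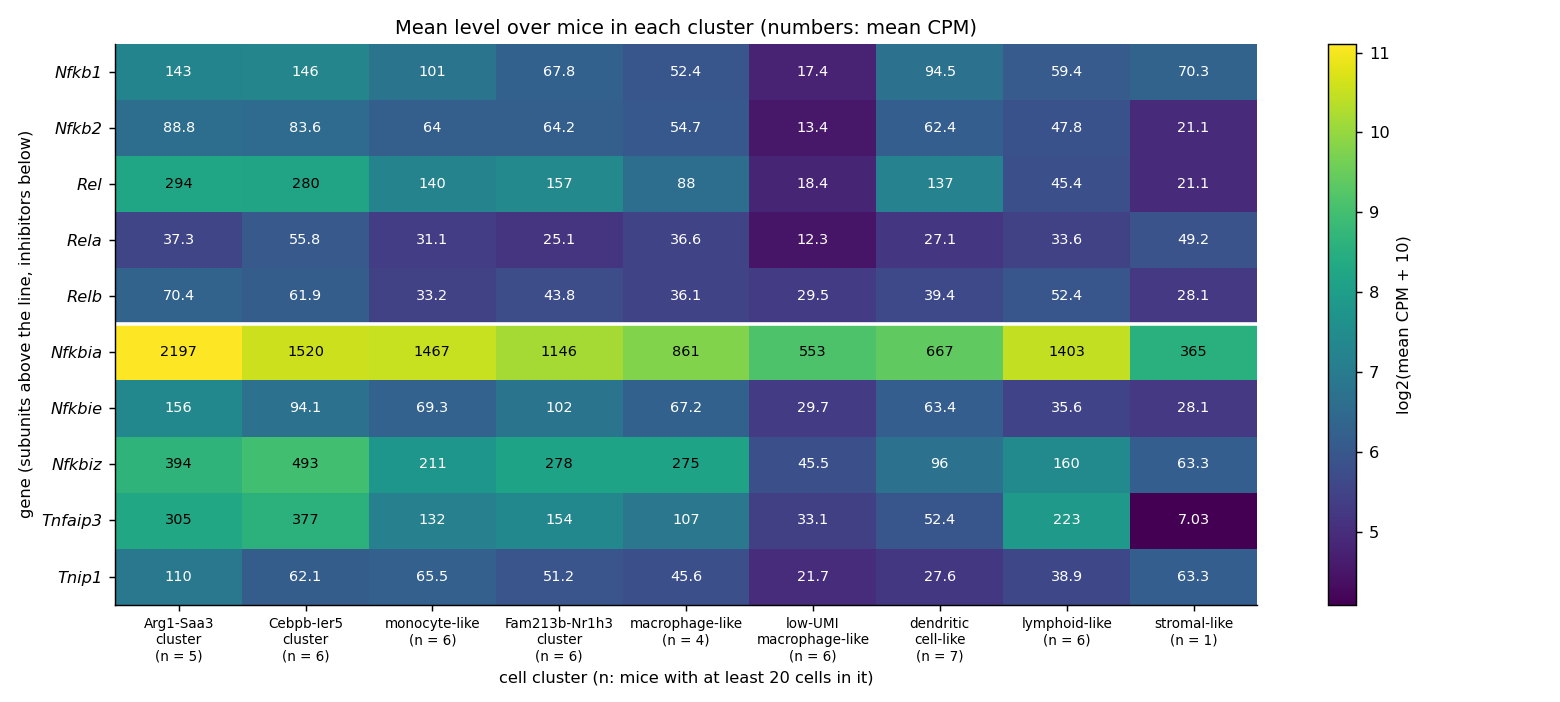
Mean level over mice of each member (rows, subunits above the white line) in each cell cluster (columns, n mice with at least 20 cells), colored by log2(mean CPM + 10) with the mean CPM printed. Nfkbia is the most abundant member in every cluster, with means from 365 CPM (stromal-like, 1 mouse) to 2197 CPM (Arg1-Saa3 cluster).

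Some members also shared patterns with each other across the 9 clusters of control mice, as a description over 9 points that come from the same mice and libraries. The low-UMI cluster, near the limit of detection for most members, is 1 of these points. Nfkb2 and Rel had a Pearson correlation of 0.98, Nfkbia and Tnfaip3 of 0.92 and Nfkb2 and Nfkbie of 0.89, on the scale of log2(mean CPM + 10), while Nfkb1 and Tnfaip3 had 0.15. Tnip1 had 0.62 with Rela and between 0.16 (Nfkb1) and 0.47 (Nfkbia) with each of the other members. Among genes outside the lists with at least 20 CPM, those most like Rel were Hnrnpll (0.99), Ahr (0.97) and Kpna4 (0.96). Those most like Nfkbia were Ddit4 (0.94), Prdm1 (0.92) and Rilpl2 (0.92).

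The third question was whether the members differed between cKO and control cells within a cluster. They did in the monocyte-like cluster, where inhibitors and not subunits passed the test: Tnfaip3 rose 5.01-fold, Nfkbie 2.89-fold, Nfkbia 2.73-fold and Nfkbiz 2.15-fold. The 5 subunits had positive log2 fold changes there too, up to 2.26-fold for Relb. Inhibitors and subunits were not tested against each other. In the Cebpb-Ier5 cluster Tnfaip3 rose 3.10-fold and no other member passed. Sums of under 20 cells were not used, which left replicates 1, 2 and 4 against 6, 7 and 8 in each of these clusters.

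In the monocyte-like cluster Tnfaip3 was at 17.8, 30.8 and 90.5 CPM in control replicates 1, 2 and 4 and at 127, 278 and 250.3 CPM in cKO replicates 6, 7 and 8. The groups did not overlap, and control replicates 1 and 2 rest on 5 and 6 UMIs. The log2 fold change was 2.32 (SE 0.40, adjusted p = 0.000189, edgeR quasi-likelihood test).

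Nfkbia was at 590.1, 426 and 1477 CPM in the monocyte-like cells of control replicates 1, 2 and 4 and at 1524, 2896 and 1886 CPM in those of cKO replicates 6, 7 and 8. Control replicate 4 stood just below the lowest cKO mouse and far above the other controls. The log2 fold change was 1.45 (SE 0.31, adjusted p = 0.00315, edgeR quasi-likelihood test).

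Nfkbie was at 49.8, 25.7 and 36.2 CPM in control and at 80.3, 133 and 90.7 CPM in cKO mice, and the groups did not overlap. Nfkbiz was at 110.2, 97.6 and 214 CPM in control and at 172, 376 and 296 CPM in cKO mice, and control replicate 4 lay above cKO replicate 6. The log2 fold changes were 1.53 for Nfkbie (SE 0.39, adjusted p = 0.0249) and 1.11 for Nfkbiz (SE 0.30, adjusted p = 0.0448) by the edgeR quasi-likelihood test.

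The fifth inhibitor, Tnip1, had a log2 fold change of 1.16 (SE 0.37) and no overlap, with an adjusted p of 0.117 by the edgeR quasi-likelihood test. In the 12 monocyte-like cells of cKO replicate 5, left out for their number, Tnip1 (35.9 CPM) and Nfkbia (1256 CPM) lay within the control range and Nfkbiz (83.8 CPM) below it. With sums from 10 cells, Nfkbiz was no longer called (log2 fold change 0.90, adjusted p = 0.221), whereas Nfkbia, Nfkbie and Tnfaip3 still were. Among the subunits, Relb was at 21.3, 25.7 and 18.1 CPM in control and at 37.9, 46.4 and 50.1 CPM in cKO mice, without overlap and with a log2 fold change of 1.17 (SE 0.45, adjusted p = 0.268). Nfkb2 (0.95), Rel (0.77), Rela (0.21) and Nfkb1 (0.07) had adjusted p-values between 0.315 and 1.

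Together 4 of 10 members were called higher in the monocyte-like cluster, where 1.07% of 11066 genes were called higher and 0.262% lower, and 8 had an unadjusted p under 0.05, as did 10.3% of genes. All cKO mice lay above all control mice in 5 members, where 7.8% of genes did so, and below in none, where 8.5% did. DESeq2, the likelihood ratio test and limma-voom each called 4 members too. With scaling by total UMIs in place of TMM, 76 genes were called higher and 41 lower (118 and 29 here) and 2 members were called.

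The makeup within this cluster moved with the condition. The summed level of 13 macrophage markers was 4936 to 6807 CPM in its control cells and 1667 to 2442 CPM in its cKO cells, and that of 8 monocyte markers was 10202 to 11624 CPM in control and 14991 to 17283 CPM in cKO cells. A cut into 12 clusters split it into 147 control and 148 cKO cells on one side and 28 control and 262 cKO cells on the other. In the first of these, the only one that could be compared, the log2 fold changes were 1.57 for Tnfaip3 (adjusted p = 0.282), 0.60 for Nfkbia (0.733), 0.995 for Nfkbie (0.806) and 0.53 for Nfkbiz (0.885), and no member was called by the edgeR quasi-likelihood test.

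No member was called there either in the matching cluster of a nearest-neighbour graph or in that of a clustering on all genes (Tnfaip3 log2 fold changes of 1.80 and 1.14). Over all 21 alternatives, Tnfaip3 was called in 18, with log2 fold changes of 1.14 to 3.35 and adjusted p-values of 1.56e-11 to 0.559. Leaving out control replicate 1, control replicate 2 or cKO replicate 7 left only 1 member called in each case, and without cKO replicate 8 it left 2.

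In the Cebpb-Ier5 cluster Tnfaip3 was at 137, 98.5 and 352 CPM in control replicates 1, 2 and 4 and at 516, 629.7 and 529.8 CPM in cKO replicates 6, 7 and 8. The groups did not overlap, with control replicate 4 again the highest control. The log2 fold change was 1.63 (SE 0.40, adjusted p = 0.0400, edgeR quasi-likelihood test), and the call was lost in 11 of 20 alternatives, with adjusted p-values of 3.88e-05 to 0.564. Among these were the leaving out of control replicate 1 (adjusted p = 0.421), control replicate 2 (0.564), cKO replicate 7 (0.354) or cKO replicate 8 (0.101). The fit with the mouse as a random term (limma-voom) lost the call too. Control replicate 3 and cKO replicate 5, with 13 and 18 cells, were at 593 and 406 CPM, so that the groups overlapped once these small sums were added, and the log2 fold change was then 1.05 (adjusted p = 0.345, edgeR quasi-likelihood test).

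Nfkbia was at 649, 809.8 and 1378 CPM in the control and at 2255, 2616 and 1413 CPM in the cKO cells of this cluster, with a log2 fold change of 1.21 (SE 0.32, adjusted p = 0.0930, edgeR quasi-likelihood test). Nfkbiz was at 342, 350.2 and 439.8 CPM in control and at 545, 763 and 519 CPM in cKO mice, with a log2 fold change of 0.72 (SE 0.32, adjusted p = 0.636). Neither gene overlapped between the groups. The cKO mice lay wholly above the control mice in 3 of 10 members, where 4.87% of genes did, and wholly below in none, where 4.1% did. Of 11066 genes 0.28% were called higher and 0.0904% lower there. The summed level of 13 macrophage markers was 7930 to 22368 CPM in control and 7441 to 11833 CPM in cKO cells of this cluster, and its 8 monocyte markers were at 2001 to 5482 CPM and at 4007 to 8497 CPM.

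**Figure D3:**
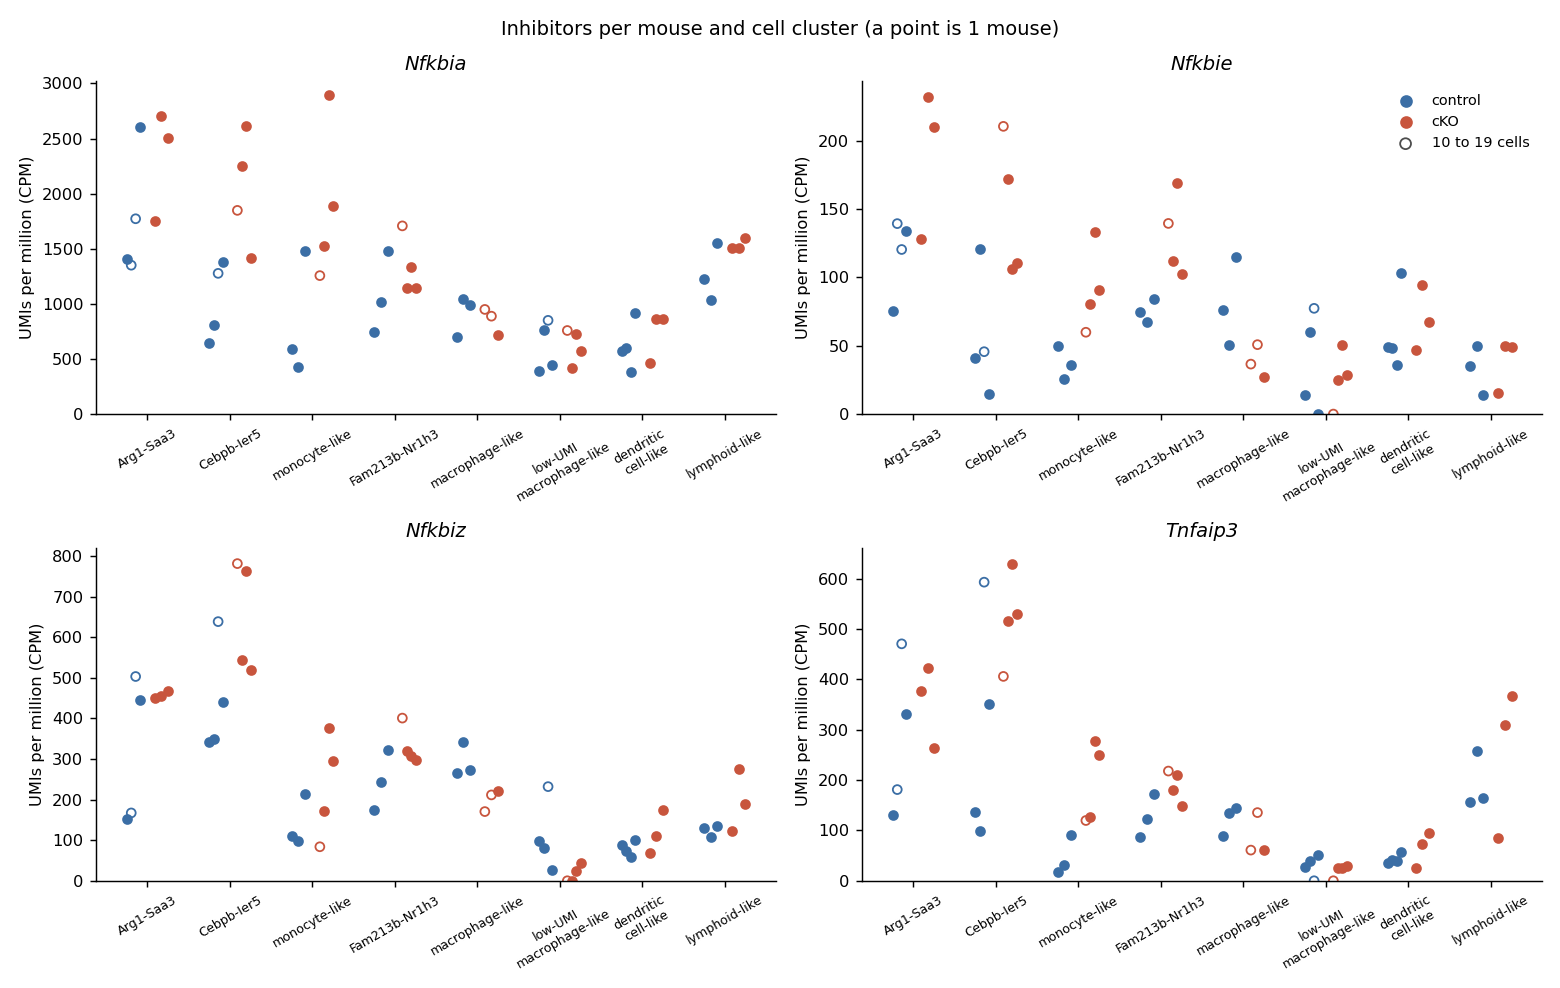
Level of Nfkbia, Nfkbie, Nfkbiz and Tnfaip3 per mouse in CPM (vertical axis) in 8 cell clusters, control in blue and cKO in red, open circles for sums of 10 to 19 cells. The monocyte-like and Cebpb-Ier5 clusters show Tnfaip3 at 127 to 278 and at 516 to 629.7 CPM in cKO mice with 20 cells, above the controls of the same size at 17.8 to 90.5 and at 98.5 to 352 CPM.

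No member was called in the other clusters. In the Fam213b-Nr1h3 cluster the log2 fold changes were between -0.88 (Rela) and 0.68 (Nfkbie). Rela was at 32.2 ± 1.59 CPM in control and 17.9 ± 2.09 CPM in cKO mice (n = 3 each) and did not overlap, with an adjusted p of 0.605 by the edgeR quasi-likelihood test. Relb and Nfkbie lay higher in all cKO mice, so that 2 members were above and 1 below, where 6.62% and 6.61% of genes were. There 0.56% of genes were called higher and 0.0723% lower, and 2 members had an unadjusted p under 0.05, as did 7.63% of genes.

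In the dendritic cell-like cluster (4 control and 3 cKO mice) the log2 fold changes were between -0.63 (Nfkb1) and 0.91 (Tnip1), 1 member had an unadjusted p under 0.05 (6.38% of genes). In the lymphoid-like cluster they were between -0.64 (Tnip1) and 1.09 (Nfkb1) and in the low-UMI cluster between -1.41 (Nfkbiz) and 1.93 (Relb), with no unadjusted p under 0.05 in either. The groups overlapped in all members of the dendritic cell- and lymphoid-like clusters, and in the low-UMI cluster Relb alone was higher in each cKO mouse, at 47.5 ± 3.93 CPM against 11.4 ± 10.3 CPM in control mice (n = 3 each) from 9 UMIs in all. Among all genes, those wholly above in cKO mice were 3.22% in the dendritic cell-like, 3.84% in the lymphoid-like and 2.39% in the low-UMI cluster, and those wholly below were 4.86%, 5.7% and 3.24%. In these 3 clusters 0.389%, 0.0633% and 0.0452% of genes were called higher and 0.00904%, 0.0181% and 0.0271% lower. DESeq2, the likelihood ratio test and limma-voom also called none of the members in these 3 clusters and the Fam213b-Nr1h3 cluster.

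The Arg1-Saa3 and macrophage-like clusters had too few cells in some mice and could be compared only from 10 cells per sum. In the Arg1-Saa3 cluster (4 control and 3 cKO mice), Nfkb1 was at 107 ± 47.0 CPM in control and 177 ± 8.81 CPM in cKO mice, with a log2 fold change of 0.93 (SE 0.33, adjusted p = 0.251, edgeR quasi-likelihood test). Nfkbie (0.90), Tnip1 (0.89) and Relb (0.81) followed there, and 5 members had an unadjusted p under 0.05, as did 9.0% of genes. In the macrophage-like cluster (3 mice each) 9 of 10 log2 fold changes were negative, down to -1.17 for Nfkbie (adjusted p = 0.485), beside a median of -0.24 for all genes, and 2 members had an unadjusted p under 0.05, as did 8.27% of genes. Nfkbiz was there at 265, 342 and 272 CPM in control and at 170, 211 and 222 CPM in cKO mice, wholly below and without a call (log2 fold change -0.74, adjusted p = 0.566, edgeR quasi-likelihood test). No other member was wholly above or below in these clusters, where 4.3% and 6.21% of 11066 genes were above and 3.72% and 8.95% below. No member was called in either cluster, where 0.761% and 0.248% of 11300 genes were called higher and 0.15% and 0.115% lower.

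The difference between clusters was then tested itself, as the effect of the condition in a cluster minus the mean effect in the other clusters. The sums of a mouse were not paired in this test. For the monocyte-like cluster this difference was 1.80 log2 units for Tnfaip3 (SE 0.50, adjusted p = 0.465) and 1.04 for Nfkbia (SE 0.34, adjusted p = 0.864) by the edgeR quasi-likelihood test. No member passed in any of 6 clusters, where 0.0633% of genes did in the monocyte-like, 0.0361% in the lymphoid-like and 0.0% in each of the other 4 clusters, and 5 members had an unadjusted p under 0.05 for the monocyte-like cluster, as did 4.74% of genes. DESeq2, the likelihood ratio test and limma-voom called none. The rise of the inhibitors is not shown to be particular to the monocyte-like cluster.

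**Figure D4:**
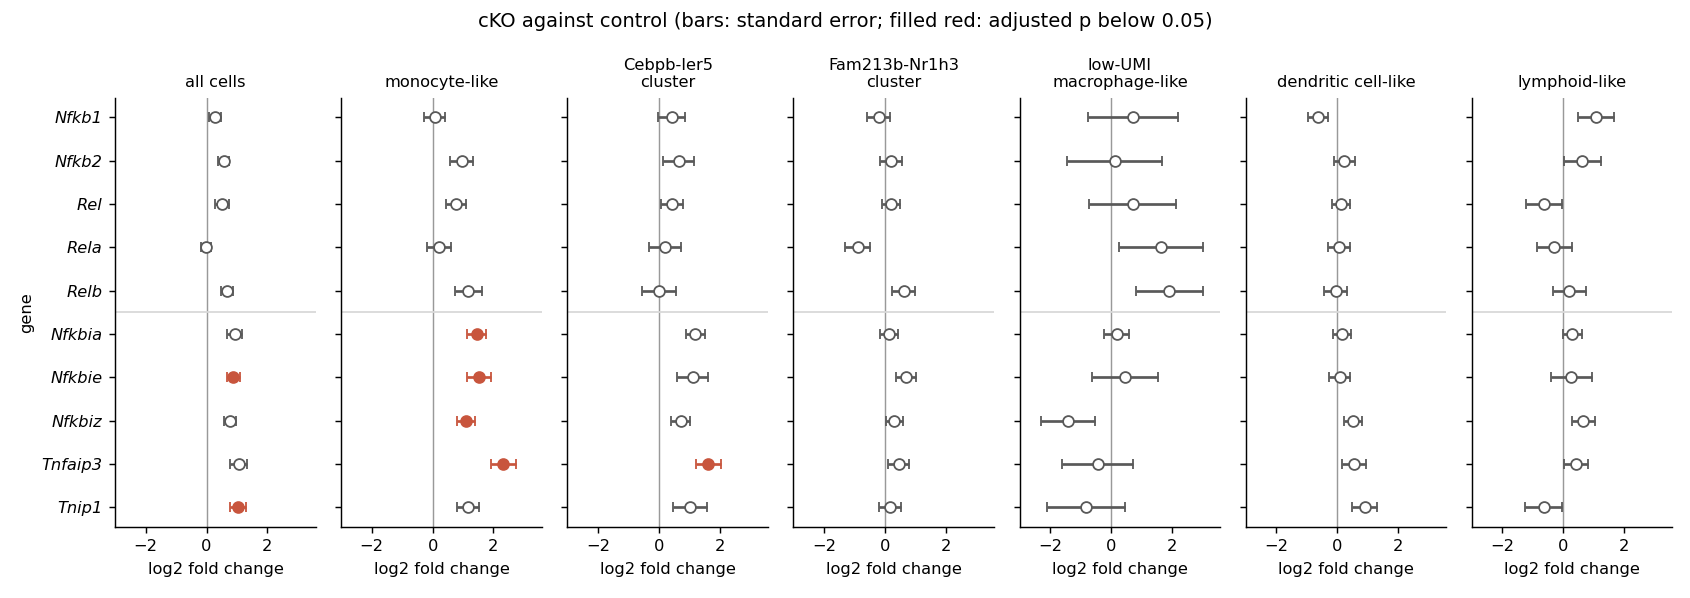
Log2 fold change of each member between cKO and control (horizontal axis, bars for the standard error) in all cells summed and in each of 6 clusters tested from 20 cells per sum, filled red where the adjusted p is below 0.05. Filled points are Nfkbie and Tnip1 in all cells, Nfkbia, Nfkbie, Nfkbiz and Tnfaip3 in the monocyte-like and Tnfaip3 in the Cebpb-Ier5 cluster.

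The rest of the pathway was read from lists of its parts, in all cells summed. These lists were chosen with earlier results of these data known, so their counts are a description and no independent support. The makeup of the cells summed also differed, as given above. Upstream, 6 of 18 ligands and receptors passed, 5 higher and 1 lower, where 2.99% and 1.48% of all genes did. Il1a, which encodes the cytokine IL-1α, was at 11.7, 7.03, 39.0 and 53.5 CPM in control and at 56.3, 94.9, 434 and 135 CPM in cKO mice, with all cKO mice above and a log2 fold change of 2.95 (SE 0.70, adjusted p = 0.0376, edgeR quasi-likelihood test). Cd14, the co-receptor for lipopolysaccharide, rose by 1.21 (SE 0.31, adjusted p = 0.0456) and Nod1, a cytosolic sensor of bacterial peptidoglycan, by 1.23 (SE 0.28, adjusted p = 0.0323) on the log2 scale. Tnfsf13b, which encodes the B-cell factor BAFF, was the gene that fell, from 21.0 ± 6.90 to 3.78 ± 1.11 CPM (SD, n = 4 each), with a log2 fold change of -2.32 (SE 0.36, adjusted p = 0.00471).

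Between receptors and NF-κB, 1 of 35 adaptors and kinases passed, a share near that of all genes (2.99% higher and 1.48% lower). This was Ikbke, a kinase related to the IκB kinases, at 17.4 ± 4.62 CPM in control and 35.3 ± 7.74 CPM in cKO mice (log2 fold change 1.21, SE 0.25, adjusted p = 0.0212, edgeR quasi-likelihood test). Of 15 other IκB proteins and regulators of ubiquitin, 1 passed, N4bp1, an inhibitor of NF-κB signaling, at 20.7 ± 5.09 and 50.1 ± 8.69 CPM (log2 fold change 1.41, SE 0.23, adjusted p = 0.00627). All cKO mice lay above all control mice in both genes.

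Downstream, 10 of 33 known target genes passed, all higher, where 2.99% of all genes were called higher. Of the 33, 30 had a positive log2 fold change, with a median of 1.06 beside -0.03 for all genes. The mincle receptor gene Clec4e (69.4, 35.2, 127 and 194 CPM in control and 287, 411, 740.1 and 389 CPM in cKO mice) had a log2 fold change of 2.23 (SE 0.46, adjusted p = 0.0204, edgeR quasi-likelihood test). Il1rn, which encodes the IL-1 receptor antagonist, was at 161 ± 83.4 and 549 ± 250 CPM and rose by 1.89 (SE 0.40, adjusted p = 0.0222). Marcksl1, a membrane-associated substrate of protein kinase C, rose by 1.46 (SE 0.33, adjusted p = 0.0283). In these 3 genes all cKO mice lay above all control mice. Il23a, a subunit of IL-23, had the largest log2 fold change of the list (4.28, SE 0.93, adjusted p = 0.0251), but was at 0, 0, 3.39 and 3.37 CPM in control and at 2.01, 6.05, 45.0 and 22.7 CPM in cKO mice, so that the groups overlapped and the fold rests on few control UMIs.

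In the monocyte-like cluster, 11 of 33 target genes passed, all higher, together with 3 of 18 ligands and receptors and 1 of 35 adaptors. Of all genes there, 1.07% were called higher and 0.262% lower. The target genes had a median log2 fold change of 1.43 beside 0.03 for all genes. The makeup within this cluster moved with the condition, as given above, and its part in these counts was not tested. Of the genes named above, Clec4e (1.67), Il1rn (2.28), Marcksl1 (2.54), Il1a (2.89) and Cd14 (1.13) passed there. Others, named after their values were seen, were Ptgs2 (2.48), the cyclooxygenase of prostaglandin synthesis, Nlrp3 (1.86), an inflammasome sensor, Il1b (1.36), which encodes the cytokine IL-1β, and Traf1 (1.96), an adaptor of TNF receptors. The survival genes Bcl2a1a, Bcl2a1b and Bcl2a1d passed as well, but are near-identical copies whose reads may be shared. In the Cebpb-Ier5 cluster 2 of 33 target genes passed, where 0.28% of all genes were called higher. They were Clec4e (1.73) and Tnfaip2 (1.85), an NF-κB target of macrophages.

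Genes of the response to tissue dissociation were read beside these. None of 16 passed in all cells summed, but the heat shock gene Hspa1a, named after its values were seen, fell in cKO cells of the monocyte-like cluster (log2 fold change -1.26, adjusted p = 0.0134), the Cebpb-Ier5 cluster (-1.37, adjusted p = 0.0290) and the low-UMI cluster (-2.23, adjusted p = 0.0120) by the edgeR quasi-likelihood test. From 10 cells per sum, 4 of 16 fell in the Arg1-Saa3 cluster (Hspa1a, Hspa1b, Egr1 and Atf3, with a list median of -0.68) and Hspa1a in the macrophage-like cluster. Of all genes, 0.15% and 0.115% were called lower in these 2 clusters. The summed level of the 16 genes was 21605 to 24513 CPM in control and 17425 to 20744 CPM in cKO monocyte-like cells, and 18148 to 21449 CPM and 14732 to 17760 CPM in the Cebpb-Ier5 cluster. Its part in the results for the members was not tested.

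**Figure D5:**
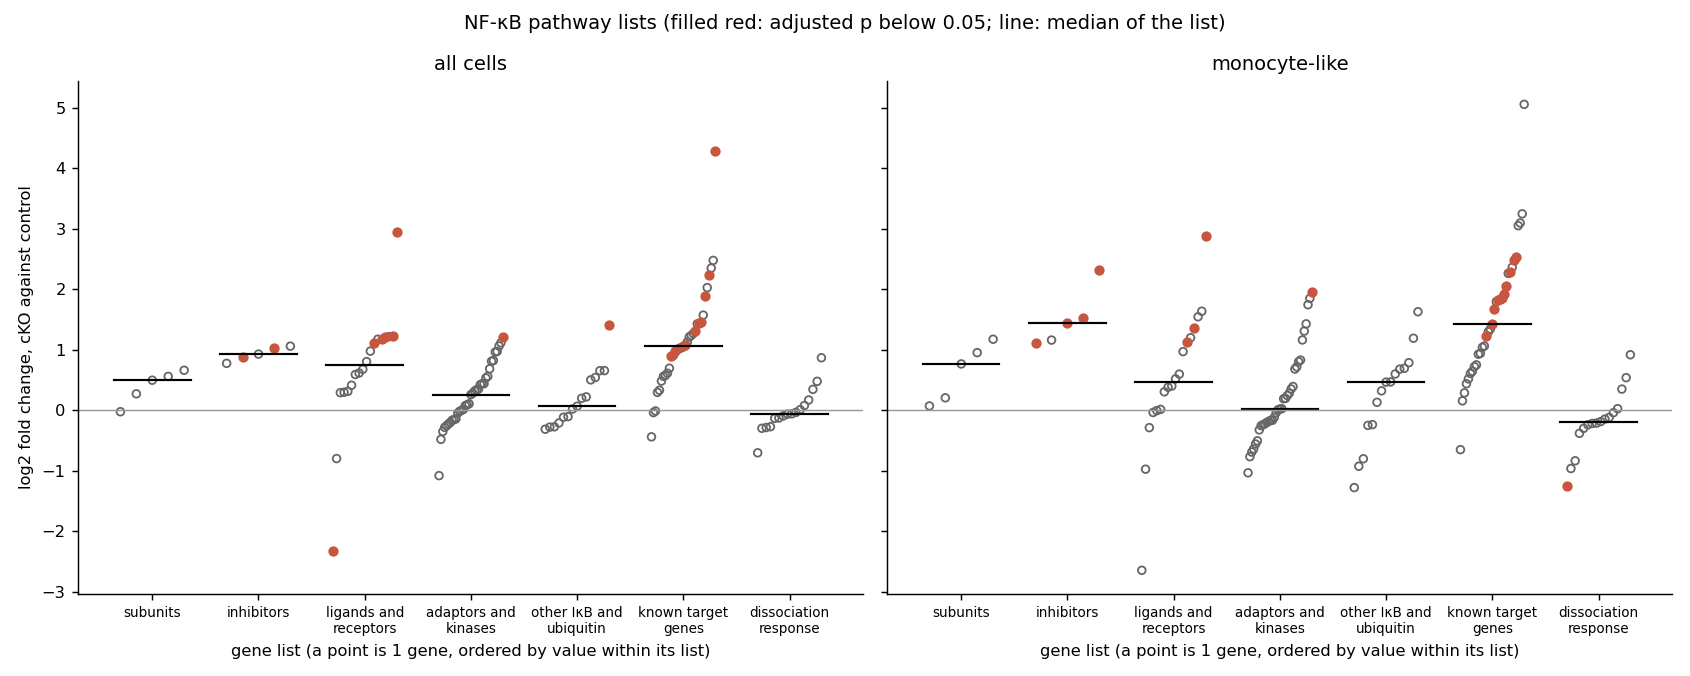
Log2 fold change between cKO and control (vertical axis) of each gene of 7 lists of NF-κB pathway parts and of the dissociation response (a point is 1 gene, the line is the median of the list), in all cells summed and in the monocyte-like cluster, filled red where the adjusted p is below 0.05. Known target genes have medians of 1.06 and 1.43, and the dissociation response has -0.06 and -0.20.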

How the data were processed

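Per the study's methods, the authors aligned reads of each well with Cell Ranger and STAR 2.5.3a to mm10 with an EYFP sequence added and deposited a single table of unscaled UMI counts that joins the wells. Barcodes were assigned to mice by their well suffix, and 0 columns were without a sample. Cells were kept at log10 UMIs of at least 2.8, log10 genes of at least 2.6 and a mitochondrial share of at most 5%. Those with any UMI of a hemoglobin gene were left out. Scrublet (scanpy 1.11.5) was run per mouse and its calls were left in, with their removal as an alternative.

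Cells were normalized with scran 1.30.0 and clustered by Ward's method on 7 principal components into 9 clusters, without 324 genes (the members, the pathway lists and the genes that the study lists as differing between conditions). The study's own cell labels were not used here, and clusters were named from fixed marker lists where at least 3 markers were detected and the leading genes bore them out. Names are therefore rebuilt.

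UMI counts were summed per mouse, and per mouse and cluster at 20 cells or more, and tested with the quasi-likelihood test of edgeR 4.0.16 (R 4.3.3, TMM scaling) on genes above 1 CPM in at least 3 sums and with a UMI in at least 20 cells, with Benjamini-Hochberg adjustment over all genes tested and a threshold of 0.05. The fit within clusters had a term for each cluster and condition and none for the mouse. DESeq2 1.42.0, limma-voom (limma 3.58.1, with the mouse as a random term) and the edgeR likelihood ratio test were alternatives. Levels across clusters were compared within mice on log2(CPM + 10) with an exact sign-flip test (Python 3.11.15). Motifs were searched in RefSeq promoter windows on both strands, and sequences were read from those windows. Depth per mouse is given with the results and sets the precision of low counts.

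The members and lists were chosen with earlier results of these data known. Named genes were the 10 members, Slc3a2, up to 4 genes of each pathway list with the largest absolute log2 fold change among those called in all cells, and the 3 genes most like the highest subunit and inhibitor.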

Additional observations from a re-analysis of the deposited data

Results flagged for a closer look

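In all cells summed, Nfkbia stood apart in a single mouse of each group. Control replicate 4 was at 1407 CPM, far above the next control mouse at 805 CPM and the lowest at 699.8 CPM. In the cKO group, replicate 7 was at 2304 CPM, with the next mouse at 1465 CPM and the lowest at 1309 CPM. The gap to the nearest mouse was 0.852 and 0.843 of the range of the group, above Dixon's critical value for 4 samples. This was looked for in 20 groups of 4 mice (10 members in 2 conditions), and chance marks about 1 in 20.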

How the results depend on the processing

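No paired analysis was possible because control mice bear the numbers 1 to 4 and cKO mice 5 to 8, so that the groups share none. In all cells the 510 genes called became 1038 with the likelihood ratio test, 787 without the low-count filter, 325 without the dendritic cell-, lymphoid- and stromal-like clusters and 145 to 712 when each mouse was left out. The 2 members called became 5 with DESeq2, 6 with the likelihood ratio test, 0 with total UMIs, 5 without the filter, 0 without doublet calls, 0 without the 2 mice under 100 cells, 1 at a mitochondrial share up to 10%, 1 without the dendritic cell-, lymphoid- and stromal-like clusters and 0 to 7 with a mouse left out (7 without control replicate 4, and 0 without control replicate 1 or 2 or cKO replicate 5, 7 or 8). Leaving out cKO replicate 5 and doublet calls together, chosen after seeing the data, gave 0. The Rela log2 fold change turned positive without doublet calls (0.00201), at a mitochondrial share up to 10% (0.085) and without control replicate 1 (0.042) or cKO replicate 8 (0.02), with a range of -0.068 to 0.042 over mice left out.

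In the monocyte-like cluster 147 genes called became 279 without the filter, 368 with each cluster fitted alone, 315 with limma-voom, 41 with 12 clusters, 52 with a graph of 10 neighbours, 27 with all genes used for clustering and 64 to 244 with a mouse left out. The 4 members called became 2 with total UMIs, 0 in each of the 3 other clusterings and 1 to 6 with a mouse left out (6 without control replicate 4). In the Cebpb-Ier5 cluster 41 genes became 70 with DESeq2, 122 without the filter, 64 at a mitochondrial share up to 10%, 115 fitted alone, 6 with limma-voom, 2 with 12 clusters, 77 with the graph and 1 to 71 with a mouse left out. Its 1 member became 2 with DESeq2, without the filter and fitted alone, 0 with total UMIs, doublets left out, a mitochondrial share up to 10%, limma-voom, 10 cells per sum or 12 clusters, and 0 to 2 with a mouse left out.

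For the effect against the other clusters, genes called in the monocyte-like cluster went from 7 to 36 without the filter, 4 with the graph, 0 with all genes and 3 to 14 with a mouse left out, and members from 0 to 2 without the filter and 0 to 2 with a mouse left out. For the Cebpb-Ier5 cluster 0 genes became 3 without the filter. The causes of these shifts were not tested. Members called stayed at 0 in the lymphoid-like, low-UMI, Fam213b-Nr1h3 and dendritic cell-like clusters in the 19 to 21 alternatives run for each. Low counts limit Tnfaip3 in control monocyte-like cells and all members but Nfkbia in the low-UMI cluster.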
